A study of Mus musculus with 8 samples.

Results

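Of the 795 circular RNAs (circRNAs) measured in the dorsal striatum of mice, 62, or 7.8%, were variable under cocaine and steady under saline. They were selected on the measured log2 intensities themselves. A circRNA was taken when its sample SD was 0.6 or more over the 4 arrays of the cocaine group and 0.3 or less over the 4 arrays of the control group, and when the ranges of the groups overlapped. On the log2 scale a difference of 1 is a 2-fold difference in intensity. Because the same values chose the circRNAs, their spread and their overlap are given as descriptions, with no test.

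The mice were male and are given as 8 weeks old. Their strain is given as C57BL/6J in the labels and as C57BL/6 in the study's methods. The methods also describe acclimation, catheter surgery, recovery and daily sessions before tissue was taken, and do not state the age at killing. Mice of the cocaine group poked their nose into an active portal for intravenous cocaine at 0.75 mg/kg per infusion until responding was stable, and those of the control group did the same for saline. Every mouse carried a jugular catheter, was housed alone, and was killed after the last session. RNA of the dorsal striatum was treated with RNase R and hybridized to a Cy3 circRNA array, with 4 arrays per group, which is also the group size in the study's legends, whereas the series description speaks of 3 mice. The labels do not state that each array is a separate mouse, so any p-value measures only the spread between these arrays, which may be technical.

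A circRNA forms when the end of a downstream exon is joined back to the start of an upstream one. The closed loop has no free ends, which is why it survives RNase R, an enzyme that digests linear RNA from the end. CircRNAs are plentiful in brain, many arise from genes that act at synapses, and some bind microRNAs. The dorsal striatum, a basal ganglia nucleus made up mostly of medium spiny neurons, takes part in habit formation and drug seeking. A tissue sample pools all of its cells, so fewer cells of a type and less RNA per cell cannot be told apart. Only probe IDs stand for the circRNAs in the files used here, without circRNA names, host genes or sequences, so the tissue could not be checked against its markers and no roles are given below.

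The arrays of the cocaine group lay further apart than those of the control group. The median log2 intensity over all circRNAs was 7.93 on cocaine arrays 1 and 2, 7.61 on cocaine array 3 and 7.62 on cocaine array 4, and lay between 7.80 and 7.89 on the saline arrays. The median SD over all circRNAs was 0.38 in the cocaine group and 0.20 in the control group. An SD of 0.6 or more was reached by 181 circRNAs (22.8%) over the cocaine arrays and by 37 over the saline arrays. With the groups exchanged, 0 circRNAs met the rule, or 1 after each array was centred on its median or quantile normalized again.

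The variable circRNAs had a median SD of 0.74 in the cocaine group and 0.20 in the control group, and the SD was 2.19 to 29.6 times as large under cocaine. From the lowest to the highest cocaine array they spanned a median of 1.54 on the log2 scale, or 2.90-fold, with a range over the circRNAs from 2.15-fold to 10.1-fold, the highest of them with 1 array near its lowest value. The saline arrays spanned between 0.08 and 0.72 on the log2 scale. Both spans follow from the rule.

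The cocaine arrays diverged from saline in both directions for the same circRNA more often than they did one way. At least 1 cocaine array lay above all saline arrays and at least 1 lay below all of them for 41 of the 62 (66.1%), against 163 of all 795 circRNAs (20.5%). Another 11 had cocaine arrays only above the saline range, and 10 only below it. All 4 cocaine arrays lay outside the saline range for 26 of the circRNAs and 3 arrays did so for 23. The rule, which asks for overlap and a wide spread, favours such values. When the arrays were scaled in other ways the same 62 circRNAs were on both sides of saline in 38 cases after centring each array on its median, 42 after repeated quantile normalization and 41 after cyclic loess.

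The cocaine means of the 62 circRNAs lay on either side of their saline means. The cocaine mean was higher than the saline mean for 31 of the circRNAs and lower for 31, with a median difference of -0.01 (cocaine minus saline, log2 scale) and extremes of 0.90 and -0.82. The difference was under 0.1 in size for 5 of them. For the same 62 circRNAs the cocaine mean was higher in 35 after median centring, 38 after repeated quantile normalization and 40 after cyclic loess. Over all circRNAs the median difference was -0.14 as deposited.

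With limma and p-values adjusted over the full table by the Benjamini-Hochberg method, 1 of the 62 was higher at an adjusted p under 0.05 and 0 were lower. Over all circRNAs measured, 6.92% were called higher and 28.6% lower. At an unadjusted p under 0.05 limma selected 1 of the 62 as higher and 2 as lower, and over all circRNAs 12.3% as higher and 33% as lower. The methods' t-test, adjusted in the same way, selected 0 of the 62, and over all circRNAs 5.41% as higher and 26% as lower. Unadjusted, it selected 1 of the 62, and over all circRNAs 10.4% as higher and 31.7% as lower. Since overlap of the groups was a condition of the choice, nothing is read from this contrast.

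The 1 circRNA past the threshold was ASCRMP001068. On cocaine arrays 1 to 4 its log2 intensity was 10.71, 10.80, 10.67 and 9.51, against 9.71, 9.25, 9.70 and 9.42 on saline arrays 1 to 4. Cocaine arrays 1, 2 and 3 were above every saline array, and cocaine array 4 was within the saline range. The mean difference was 0.90. With the methods' t-test its p was 0.032 unadjusted and 0.085 adjusted, so it passed only without adjustment. It did not pass with limma, adjusted, when any array other than cocaine array 4 was left out.

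Each cocaine array departed from saline in both directions. Cocaine array 1 was above the saline range for 31 of the 62 circRNAs and below it for 26. On array 2 these counts were 29 and 20, on array 3 they were 23 and 25, and on array 4 they were 20 and 23. Over all 795 circRNAs the counts above and below were 258 and 380 on array 1 and 255 and 362 on array 2. They were 200 and 377 on array 3 and 188 and 365 on array 4, so departures both ways were common in the whole table too. The median absolute deviation from the saline mean was 0.87, 0.81, 0.61 and 0.39 on cocaine arrays 1 to 4, against 0.66, 0.57, 0.54 and 0.47 over all circRNAs. As deposited, array 1 thus lay furthest from saline and array 4 nearest to it. The signed median deviation was 0.21, 0.11, -0.08 and -0.03 on arrays 1 to 4. For the same 62 circRNAs it was 0.11, 0.03, 0.16 and 0.19 after median centring, so that arrays 1 and 2 kept their sign and arrays 3 and 4 did not. For the 78 circRNAs chosen anew after centring it was -0.35, -0.38, 0.49 and 0.32. Between the cocaine arrays, the median absolute difference over the 62 circRNAs was 0.28 for arrays 1 and 2 and 0.40 for arrays 3 and 4. It was 1.42 for arrays 1 and 3, 1.22 for arrays 1 and 4, 1.27 for arrays 2 and 3 and 1.11 for arrays 2 and 4, whereas the saline arrays differed from each other by 0.14 to 0.28.

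The departures of the cocaine arrays followed a few shared patterns. For each circRNA, the cocaine arrays were divided at the widest gap between neighbouring values. This gap separated arrays 1 and 2 from arrays 3 and 4 for 42 of the 62 circRNAs (67.7%), against 271 of all 795 (34.1%). Among the 119 other circRNAs with a cocaine SD of 0.6 or more, which had a larger saline SD or no overlap, it did so for 69 (58.0%). Arrays 1 and 2 were the higher side for 29 of the circRNAs and arrays 3 and 4 for 13. For the same 62 circRNAs this order held under the other scalings, with arrays 1 and 2 higher for 23 and arrays 3 and 4 for 17 after median centring. These counts were 27 and 16 with arrays quantile normalized again, and 27 and 15 with cyclic loess. With the circRNAs chosen anew under each scaling it did not hold, since arrays 1 and 2 were then higher for 14 and arrays 3 and 4 for 44 of 78 circRNAs, 14 and 27 of 60, and 20 and 24 of 64. The order thus differed between the circRNAs chosen as deposited and those chosen anew. A scaling changes both the values and the circRNAs that meet the rule. The 62 were chosen on the deposited values, on which cocaine arrays 1 and 2 had higher medians than arrays 3 and 4.

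The remaining 20 circRNAs were divided otherwise. Cocaine array 1 was the low one for 5 of them, array 3 for 4, array 4 for 3 and array 2 for 2. Cocaine array 3 alone was high for 3 circRNAs, array 4 alone for 2 and array 1 alone for 1. Each cocaine array was therefore the one set apart for at least 2 circRNAs.

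With arrays 1 and 2 on the higher side, the circRNA of largest spread was ASCRMP001473. On cocaine arrays 1 to 4 its log2 intensity was 8.86, 9.48, 6.63 and 7.55, against 7.79, 7.81, 7.63 and 8.19 on saline arrays 1 to 4. Cocaine arrays 1 and 2 were above the saline range and arrays 3 and 4 below it, and the extremes were 7.19-fold apart. The cocaine mean was nevertheless 8.13 ± 1.28, against a saline mean of 7.85 ± 0.24 (SD, n = 4 each).

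ASCRMP000029 had values of 7.77, 7.49, 5.03 and 6.13 on cocaine arrays 1 to 4, against 5.95, 6.51, 6.59 and 6.45 on saline arrays 1 to 4. Array 3 was far below saline, array 4 was within the saline range, and arrays 1 and 2 were above it. ASCRMP000685 had 7.39, 7.83, 5.28 and 6.29 on the cocaine arrays, against 6.70, 6.38, 7.02 and 6.95 on the saline arrays. Its mean difference was only -0.07, although cocaine arrays 2 and 3 were 5.86-fold apart.

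ASCRMP001536 gave the plainest form of this pattern. It had 8.56, 8.56, 6.70 and 6.80 on cocaine arrays 1 to 4, against 7.18, 7.60, 7.65 and 7.65 on saline arrays 1 to 4. The arrays of each cocaine pair lay close together, 1 pair above and 1 pair below all of the saline arrays. These 4 circRNAs also met the rule under each of the 3 other scalings. ASCRMP001473 and ASCRMP001536 kept their division under each, whereas array 4 joined arrays 1 and 2 on the higher side for ASCRMP000685 under each of them and for ASCRMP000029 after median centring.

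Not every circRNA of this kind straddled saline. Of the 29, both higher arrays were above the saline range and both lower arrays below it for 10. In 15 both higher arrays were above the saline range without both lower ones being below it, and in 4 both lower arrays were below it without both higher ones being above. ASCRMP000535 is an example with both higher arrays above saline, having 9.30, 8.71, 7.57 and 7.68 on cocaine arrays 1 to 4, against 7.50, 7.34, 7.66 and 7.51 on saline arrays 1 to 4. ASCRMP001713 is one with both lower arrays below saline, having 8.73, 8.65, 7.23 and 7.50 on the cocaine arrays, against 8.78, 8.49, 8.77 and 8.41 on the saline arrays. In ASCRMP000535 cocaine array 3 was within the saline range and array 4 just above it, and in ASCRMP001713 arrays 1 and 2 were within it. These 2 examples were chosen after their values were seen. ASCRMP000535 met the rule under none of the 3 other scalings and ASCRMP001713 under 1.

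Across the 29 circRNAs the mean of cocaine arrays 1 and 2 exceeded that of arrays 3 and 4 by a median of 1.31 on the log2 scale, or 2.48-fold. Within a pair the arrays differed by a median of 0.27 for arrays 1 and 2 and 0.36 for arrays 3 and 4. Relative to the saline mean, the median deviation was 0.98, 1.04, -0.41 and -0.31 on cocaine arrays 1 to 4. The departure above saline was thus the larger one in these circRNAs. Array 4 was higher than array 3 in 21 of the 29, so array 3 was usually the lowest of the cocaine arrays.

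With arrays 3 and 4 on the higher side, ASCRMP000952 had the largest spread of all 62. On cocaine arrays 1 to 4 its log2 intensity was 3.05, 4.47, 6.31 and 6.39, against 5.30, 5.45, 5.14 and 5.54 on saline arrays 1 to 4. Cocaine arrays 3 and 4 were above the saline range and arrays 1 and 2 below it, with 10.1-fold between arrays 4 and 1. The lowest value of any circRNA on cocaine array 1 was 2.32, so the low end of this span lay near the floor of that array.

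ASCRMP000680 was the circRNA with the steadiest saline values. It had 6.17, 6.12, 7.79 and 7.79 on cocaine arrays 1 to 4, against 7.29, 7.32, 7.36 and 7.31 on saline arrays 1 to 4. The saline SD was 0.03 and the cocaine SD 0.95. ASCRMP000302 behaved in much the same way, with 5.91, 6.36, 7.86 and 7.62 on the cocaine arrays and 7.21, 7.27, 7.20 and 7.30 on the saline arrays.

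The brightest of the 62, ASCRMP000622, was also of this kind. It had 13.25, 13.39, 14.86 and 14.71 on cocaine arrays 1 to 4, against 14.53, 14.49, 14.15 and 14.16 on saline arrays 1 to 4. Arrays 1 and 2 were below and arrays 3 and 4 above all saline arrays. The divergence was therefore not limited to dim circRNAs, and no array reached its highest value here.

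Of the 13 circRNAs with arrays 3 and 4 higher, 10 had both higher arrays above and both lower arrays below the saline range. The mean of arrays 3 and 4 exceeded that of arrays 1 and 2 by a median of 1.28, or 2.43-fold. Relative to the saline mean, the median deviation was -0.87, -0.65, 0.54 and 0.49 on cocaine arrays 1 to 4. Here the departure below saline on arrays 1 and 2 was the larger one. All 13 kept this division under each of the 3 other scalings and 12 met the whole rule under each. Of the 29 circRNAs with arrays 1 and 2 higher, 23 kept the division under each scaling, but only 6 met the whole rule under each. Median centring removes the difference between arrays in their medians, 7.93 on cocaine arrays 1 and 2 against 7.61 and 7.62 on arrays 3 and 4. This lowers the SD where arrays 1 and 2 are higher and raises it where arrays 3 and 4 are. These counts therefore do not show that either division is the firmer one.

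Among the other divisions, cocaine array 1 was set low in ASCRMP000339 and ASCRMP000066. ASCRMP000339 had 4.47, 5.70, 6.91 and 6.84 on cocaine arrays 1 to 4, against 6.61, 6.68, 6.46 and 6.88 on saline arrays 1 to 4. Array 2 was below saline too, so that the values came close to the division described above. ASCRMP000066 had 4.28, 5.64, 6.53 and 5.59 on the cocaine arrays, against 5.28, 5.91, 5.71 and 5.76 on the saline arrays. There array 1 was below the saline range, array 3 was above it, and arrays 2 and 4 were within it.

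The 5 circRNAs with cocaine array 1 set low had a median deviation of -1.57 on that array, and each was below the saline range there. All 5 were in the dimmest quartile of the table by mean intensity. After repeated quantile normalization none of these 5 had array 1 alone on the lower side. After median centring and after cyclic loess some of them did, but not all. The 4 circRNAs with cocaine array 3 set low had a median deviation of -1.41 on it. In all 9 of these circRNAs the cocaine mean was lower than the saline mean.

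Cocaine array 2 was the low one in ASCRMP001797, with 5.28, 4.09, 7.04 and 6.38 on cocaine arrays 1 to 4, against 6.36, 5.77, 6.30 and 5.95 on saline arrays 1 to 4. Its value on cocaine array 2 was the lowest of any circRNA there, so the size of that departure is uncertain. ASCRMP000775 was the one circRNA with cocaine array 1 alone on the higher side, with 9.34, 7.41, 7.63 and 8.08 on the cocaine arrays and 7.29, 7.72, 7.33 and 7.63 on the saline arrays. Arrays 2 and 3 were within the saline range.

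Cocaine array 3 was the low one in ASCRMP001788, with 6.69, 7.06, 5.43 and 6.06 on cocaine arrays 1 to 4, against 6.75, 7.07, 6.87 and 7.19 on saline arrays 1 to 4. It was the high one in ASCRMP001775, with 6.54, 6.26, 7.91 and 7.09 on the cocaine arrays and 7.29, 6.84, 7.03 and 6.89 on the saline arrays. The same array was thus at the bottom for 1 circRNA and at the top for the other.

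Cocaine array 4 was the low one in ASCRMP000117, with 10.92, 11.30, 10.36 and 9.76 on cocaine arrays 1 to 4, against 9.86, 9.95, 10.06 and 10.32 on saline arrays 1 to 4. It was the high one in ASCRMP001493, with 5.88, 6.46, 5.59 and 7.16 on the cocaine arrays and 6.59, 6.92, 6.59 and 6.93 on the saline arrays. In ASCRMP000117 the other cocaine arrays were above saline and in ASCRMP001493 they were below it.

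The division of the cocaine arrays varied with intensity, which the rule did not use. The circRNAs were spread over the range of the table, with 17, 16, 17 and 12 of them in its quartiles from dim to bright by mean intensity. The median of their mean log2 intensity was 7.77, against 7.81 for all circRNAs. In the dimmest quartile, 5 of the 17 divided arrays 1 and 2 from arrays 3 and 4. Among the 45 brighter ones, 37 did. After median centring these counts were 9 of 21 and 49 of 57, after repeated quantile normalization 6 of 19 and 35 of 41, and after cyclic loess 7 of 18 and 37 of 46. Other divisions of the cocaine arrays were therefore more frequent in the dimmest quartile under each of these scalings. This was not particular to the set. Over all 181 circRNAs with a cocaine SD of 0.6 or more, members included, 21 of 57 in the dimmest quartile were divided this way. In the next quartiles, from dim to bright, 30 of 46, 39 of 46 and 21 of 32 were. Over all circRNAs the median cocaine SD was 0.43 in the dimmest quartile and 0.34 in the brightest.

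Some pairs of these circRNAs had closely similar deviations across the cocaine arrays. Likeness was measured as the root mean square difference between the deviations of a pair from their own saline means on the 4 cocaine arrays. A pair was taken as alike at 0.2 or less, close to the median saline SD of 0.20. By this measure 34 of the 1891 pairs were alike, and they involved 33 of the 62 circRNAs. Of these pairs, 22 joined circRNAs with arrays 1 and 2 higher and 9 joined circRNAs with arrays 3 and 4 higher. The points of each comparison are 4 arrays that share their normalization, so these are descriptions of the arrays at hand. Pairs of other circRNAs were not compared, so whether likeness was more frequent among the 62 is not known.

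The most alike were ASCRMP000707 and ASCRMP001740, with a root mean square difference of 0.04. ASCRMP000707 had 8.49, 8.80, 9.66 and 9.93 on cocaine arrays 1 to 4, against 9.29, 9.61, 9.31 and 9.53 on saline arrays 1 to 4. ASCRMP001740 had 7.39, 7.61, 8.49 and 8.71 on the cocaine arrays, against 8.28, 8.49, 7.98 and 8.29 on the saline arrays. Both were lowest on cocaine array 1 and highest on cocaine array 4, and among the saline arrays both were highest on array 2. Whether the probes measure related sequences is not known from the files used here.

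ASCRMP000622 and ASCRMP001509 were nearly as alike, at 0.05, although their mean log2 intensities were 3.73 apart. ASCRMP001509 had 9.59, 9.68, 11.06 and 10.97 on cocaine arrays 1 to 4, against 10.78, 10.55, 10.56 and 10.54 on saline arrays 1 to 4. With arrays 1 and 2 higher, the closest pairs were ASCRMP000875 with ASCRMP001031 and ASCRMP000723 with ASCRMP001713, each at 0.07.

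Other pairs mirrored each other. In 22 pairs, involving 21 circRNAs, the deviations summed to a root mean square of 0.2 or less. Each of these joined a circRNA with arrays 1 and 2 higher to one with arrays 3 and 4 higher. Deviations that nearly cancel reverse the order of the arrays, so opposite divisions within a pair largely follow from the measure. The closest to opposite were ASCRMP000225 and ASCRMP001539, at 0.09. ASCRMP000225 had 8.53, 8.51, 7.53 and 7.36 on cocaine arrays 1 to 4, against 8.31, 7.92, 8.55 and 8.03 on saline arrays 1 to 4. ASCRMP001539 had 9.06, 9.31, 10.18 and 10.26 on the cocaine arrays, against 9.58, 9.48, 9.36 and 9.53 on the saline arrays. Cocaine arrays 1 and 2 were above the saline mean in ASCRMP000225, though within the saline range, and below the saline range in ASCRMP001539. ASCRMP000225 met the rule under none of the 3 other scalings, and ASCRMP001539 under all but cyclic loess.

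Across the 62 circRNAs, which are not independent replicates, the deviations from the saline mean had a Pearson correlation of 0.84 between cocaine arrays 1 and 2 and 0.60 between arrays 3 and 4. Between arrays of different pairs it was -0.35 to -0.24. Over all 795 circRNAs the same correlations were 0.89, 0.74 and 0.34 to 0.48. All of these deviations share the saline mean, and the 62 circRNAs were chosen for their spread and overlap.

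The circRNAs were not without structure on the saline arrays, where only their total spread was limited. Among the 29 with cocaine arrays 1 and 2 higher, saline array 3 lay above the saline mean for 22, with a median deviation of 0.16. Among the 13 with cocaine arrays 3 and 4 higher, saline array 3 lay above the saline mean for 3, with a median of -0.05. Over all circRNAs it did so for 49.7%. These differences were several times smaller than those on the cocaine arrays, and they were found after the patterns were known.

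Values close to the thresholds show how gradual the choice is. The circRNA just inside the limit on cocaine, ASCRMP000076, had a cocaine SD of 0.60, with 6.28, 6.42, 5.16 and 5.53 on cocaine arrays 1 to 4, against 6.33, 6.67, 6.44 and 6.31 on saline arrays 1 to 4. Just outside it was ASCRMP001337, with 8.71, 8.97, 8.09 and 7.64 on the cocaine arrays and 7.73, 7.23, 7.74 and 7.74 on the saline arrays. Just inside the limit on saline was ASCRMP001410, with 12.79, 12.95, 11.80 and 11.68 on the cocaine arrays and 11.80, 11.65, 12.18 and 12.26 on the saline arrays. Just outside it was ASCRMP001716, with 8.76, 8.58, 7.02 and 7.21 on the cocaine arrays and 7.06, 6.99, 7.54 and 6.84 on the saline arrays. In all 4 of these circRNAs cocaine arrays 1 and 2 were higher than arrays 3 and 4.

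Another 14 circRNAs met both limits on SD but had no overlap between the groups, and so were left out. The cocaine mean was higher for 4 of them and lower for 10. Over all circRNAs the median difference was also toward lower cocaine means, at -0.14. The share of all circRNAs without overlap was not counted, so nothing is read from this split.

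The composition of the set depended on how the arrays were scaled. Of the 62 circRNAs, 39 met the rule after median centring, 41 after repeated quantile normalization and 45 after cyclic loess. These were 50%, 68.3% and 70.3% of the circRNAs chosen under those scalings. In all, 28 met the rule under each of the 3 other scalings and 9 under none of them. The 28 held 6 circRNAs with arrays 1 and 2 higher, 12 with arrays 3 and 4 higher and 10 divided otherwise, and 25 of them had cocaine arrays on both sides of the saline range. Leaving out 1 array and taking the SD over the 3 that remained gave 48 to 78 circRNAs. Cocaine intake, slide and labeling are not given per array in the sources used here, and their part in the divergence of the cocaine arrays was not tested.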

How the data were processed

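RNA of the dorsal striatum was measured on 8 single-colour Cy3 arrays, 4 from mice that self-administered cocaine and 4 from mice that self-administered saline. The authors extracted the intensities with GenePix Pro, quantile normalized them in R and kept circRNAs flagged above background, and the deposited table holds log2 intensities of 795 circRNAs. How background and replicate spots were handled is not stated in the sources used here. Another deposited sheet holds only a title and was not used. Circular RNA names, host genes, positions and sequences were not analysed here.

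All values were used as deposited. The 62 circRNAs and the ways to describe them were chosen with earlier results of these data known. Within each pattern the circRNAs named are those of highest cocaine SD (4, 3, 2 and then 1 per pattern, from the most frequent pattern on), with the most alike and most opposite pairs and those nearest the limits. ASCRMP000535, ASCRMP000622, ASCRMP000706, ASCRMP000723, ASCRMP000767, ASCRMP000875, ASCRMP001031, ASCRMP001068, ASCRMP001509 and ASCRMP001713 were added after their values were seen. Groups were compared over all circRNAs with limma 3.58.1 in R 4.3.3, two-sided, with Benjamini-Hochberg adjustment and a threshold of 0.05, and the fit was tested on simulated data. Alternatives were centring each array on its median, repeated quantile normalization, cyclic loess, a filter on dim circRNAs, other limits on the SD, other limma settings and leaving out each array. Choosing the patterns anew under each scaling, following the same 62 circRNAs and refitting ASCRMP001068 were added after seeing the data. The number of arrays limits the precision.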

Additional observations from a re-analysis of the deposited data

Results flagged for a closer look

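The 62 circRNAs were looked at in each group of 4 arrays for 1 array far from the other 3, by Dixon's 95% limit on its gap as a share of the whole range, and 5 of the 124 sets passed it. Chance gives about 1 such set in 20, although that rate is for sets not chosen by their spread and overlap, as these were. Of these sets, 2 were of cocaine arrays and 3 of saline arrays.

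ASCRMP001068 had 10.71, 10.80, 10.67 and 9.51 on cocaine arrays 1 to 4, and the gap below array 3 took 0.897 of the range. ASCRMP000767 had 9.52, 9.74, 8.34 and 9.76 on the cocaine arrays, with array 3 apart by 0.832 of the range. A different array was thus apart in each.

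Among the saline arrays, array 3 was apart for ASCRMP000706 by 0.931 of the range, with 7.79, 7.80, 8.12 and 7.78 on saline arrays 1 to 4. Array 1 was apart for ASCRMP001509 by 0.934 of the range, with 10.78, 10.55, 10.56 and 10.54. It was also apart for ASCRMP001536 by 0.906 of the range, with 7.18, 7.60, 7.65 and 7.65. The ranges of these saline sets were small beside those of the cocaine arrays.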

How the results depend on the processing

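The number of circRNAs variable under cocaine and steady under saline followed its limits, with 96 at a cocaine SD of 0.5 or more, 34 at 0.7 or more, 30 at a saline SD of 0.2 or less and 0 with the groups exchanged. It was 48 to 78 when 1 array was left out. The median deviation from the saline mean, 0.21, 0.11, -0.08 and -0.03 on cocaine arrays 1 to 4 as deposited, differed when the circRNAs were chosen anew under another scaling, which changes the set as well as the values. After median centring it was -0.35, -0.38, 0.49 and 0.32, and after repeated quantile normalization -0.090, -0.16, 0.46 and 0.28. After cyclic loess it was 0.015 on array 1, 0.35 on array 3 and 0.23 on array 4. For the same 62 circRNAs it was 0.11, 0.03, 0.16 and 0.19 after median centring, 0.27, 0.20, 0.28 and 0.10 after repeated quantile normalization, and 0.41, 0.28, 0.27 and 0.17 after cyclic loess. Above the lower quartile of intensity it was 0.64 on array 1 and 0.41 on array 2. Leaving out 1 array gave 0.14 to 0.40 on array 1, 0.060 to 0.30 on array 2, -0.16 to -0.04 on array 3 and -0.08 to 0.05 on array 4.

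Over all circRNAs limma called 55 higher in the cocaine group as deposited, 84 after median centring, 95 after repeated quantile normalization, 112 after cyclic loess and 128 with array weights. Leaving out 1 array gave 25 to 82, with 26 without saline array 2 and 25 without saline array 4. The methods' t-test, adjusted, gave 43. The count called lower was 152 to 250 under all of these settings and those below. Arrays of the same number did not deviate together (correlations of -0.26 to -0.003). These values cannot decide whether arrays were processed in pairs, which the sources used here do not give. With the replicate block 37 circRNAs were called higher and 197 lower, and ASCRMP001068 was not called. The mean differences of the 23 circRNAs named by rule turned sign in 28 of 253 other results, for 12 of the circRNAs, 11 times under another scaling and 17 times when 1 array was left out. For ASCRMP001473 the difference was 0.28 as deposited and -0.17 without cocaine array 2, and for ASCRMP000952 it was -0.30 and, after repeated quantile normalization, 0.30.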
